A study of Mus musculus with 6 samples.

Results

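Collagen transcripts and those of the proteins that hydroxylate, chaperone, process and cross-link collagen were compared between control and MAOA-KO cells. The set was made of the protein-coding rows of the deposited table whose symbol has the form of a collagen chain (Col, a number, a and a number), together with Lox, Loxl1 to Loxl4, Plod1 to Plod3, P4ha1 to P4ha3, Serpinh1, Pcolce, Bmp1 and Sparc. It held 43 of 15836 gene rows, of which 28 were collagen chains and 15 were modifiers, the chaperone or Sparc. The chains were described as 8 fibrillar, 5 basement membrane and 15 other collagens. A further 17 mouse collagen chains, among them Col2a1, Col10a1, Col11a1 and Col4a3, had no row and were not analysed here.

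The 6 libraries came from cultured mouse cells of the line CAF, a common abbreviation of cancer-associated fibroblast that the labels do not spell out, with pancreatic tumor as the labelled tissue. The 3 control libraries carried the genotype wt, and the 3 MAOA-KO libraries carried the genotype MAOA ko, where MAOA is monoamine oxidase A, a mitochondrial enzyme that oxidises amines (1 label field calls the same libraries a knockdown group). The labels do not say how the knockout was made, whether it was 1 clone, or whether replicates were separate cultures, so p-values measure the spread between these libraries, and differences between clones cannot be told apart from the genotype.

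Collagens are triple helices of 3 chains. Fibrillar chains are made as propeptides that are trimmed outside the cell before they assemble into fibrils, whereas type IV chains keep their ends and form the network of basement membranes. Before the helix folds, prolines and lysines are hydroxylated in the endoplasmic reticulum, and Serpinh1 (HSP47) binds the folded helix on its way out. Lysyl oxidases then cross-link the secreted molecules. In pancreatic tumours fibroblasts are a well-known source of fibrillar collagen.

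The libraries held 18631359 to 26645441 counts, so that 3 counts were worth 0.110 to 0.156 CPM, the counts per 1e+06 counts of a library scaled by edgeR's TMM factors. Of all rows, 13243 passed the filter on low counts and were tested, and 9781 of them (73.9%) differed at an adjusted p under 0.05 in edgeR's quasi-likelihood test with Benjamini-Hochberg adjustment. The row named Maoa stood at 48.8, 48.2 and 50.01 CPM in the control libraries and at 25.0, 24.3 and 25.5 in the MAOA-KO libraries, but the locus the file lists for that row is not that of Maoa, so it was not used to check the labels. The CAF label was only partly matched by markers. Of 15 fibroblast genes, 6 were under 1 CPM or had no row, including Dcn, Thy1 and Fap under 1 CPM and Lum and Postn without a row, and the sum of the list was mostly Vim. That sum ran from 3563 to 3705 CPM in the control and from 2019 to 2084 CPM in the MAOA-KO libraries. List members moved both ways, beside 36.9% lower and 37% higher of all genes. Of 9 tested, 5 fell, among them Vim, and 2 rose, Acta2 from a mean of 30.9 to 45.9 CPM and Fbln2 from 126 to 156 CPM. Of 10 epithelial genes, 5 were under 1 CPM or had no row, while the keratins Krt8, Krt18 and Krt19 were abundant, and the list's sum ran from 2101 to 2230 CPM in the control and from 1212 to 1284 CPM in the MAOA-KO libraries. All 9 endothelial genes and 9 of 10 leukocyte genes were under 1 CPM or had no row. In bulk libraries fewer cells of a type and less RNA per cell cannot be told apart, and the part of these marker shifts in the results on collagen was not tested.

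The most abundant collagen transcripts were not those of type I collagen. Per length, in the deposited FPKM (fragments per kilobase of transcript, scaled to the library's total), Col4a1 led with a mean level of 64.9 in the control libraries, followed by Col18a1 at 45.5, Col4a2 at 42.3, Col4a5 at 23.4, Col3a1 and, at 17.6, Col5a1. Col1a1, a chain of type I collagen and usually the dominant fibroblast collagen, had a mean of 0.262 FPKM in control cells, and its partner Col1a2 had 1 to 6 counts in every library. The modifiers stood higher than most chains, with Serpinh1 at 395, Sparc at 387 and Pcolce at 123 FPKM in control cells.

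**Figure D1:**
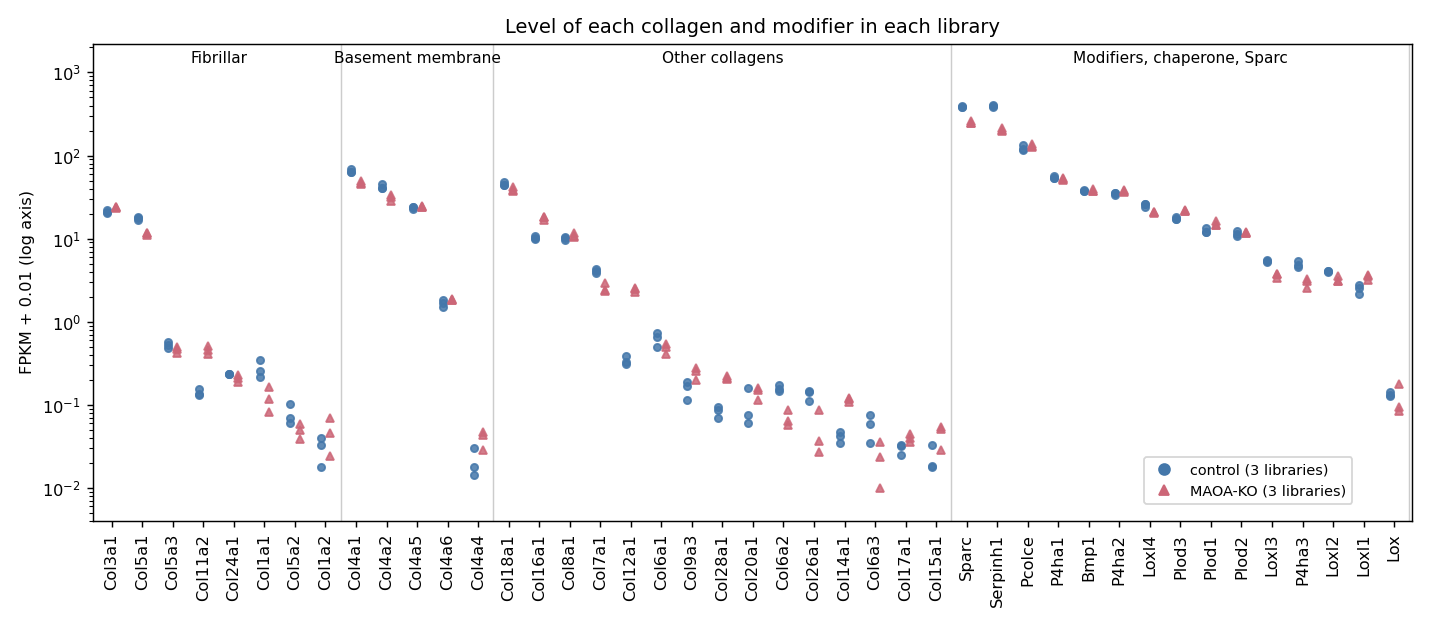
Level of each of the 43 genes in each library, as FPKM plus 0.01 on a log axis, with circles for the 3 control and triangles for the 3 MAOA-KO libraries, ordered by mean level within each class. Col4a1, Col4a2 and Col18a1 stand at the top of the collagens, and Col1a1 and Col1a2 stand below 1 FPKM.

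Of the 36 collagen and modifier genes tested, 9 rose and 15 fell in MAOA-KO cells and 12 did not pass the test. That is 66.7% called, beside 73.9% of all genes, where 37% were higher and 36.9% lower. The median log2 fold change was -0.11 for the set and 0.00 for all genes. Scaled by library totals alone, 12 of the set were higher and 14 lower, beside 5757 and 4046 of all genes, whose median moved to 0.09. At least 1.5-fold and past the test were 13 of the 36, beside 29.6% of all genes. The groups did not overlap, with every MAOA-KO library higher, for 8 of the 36, beside 37.7% of all genes, and with every one lower for 17, beside 37.5%; in either direction the share of all genes was 75.1%. The count filter was passed by 30 genes in both groups, by Lox and Col6a2 through the control libraries alone, and by Col9a3, Col14a1, Col20a1 and Col28a1 through the MAOA-KO libraries alone, so those 6 were among the tested genes because of 1 group. The 7 untested chains had at most 15 counts in any library.

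**Figure D2:**
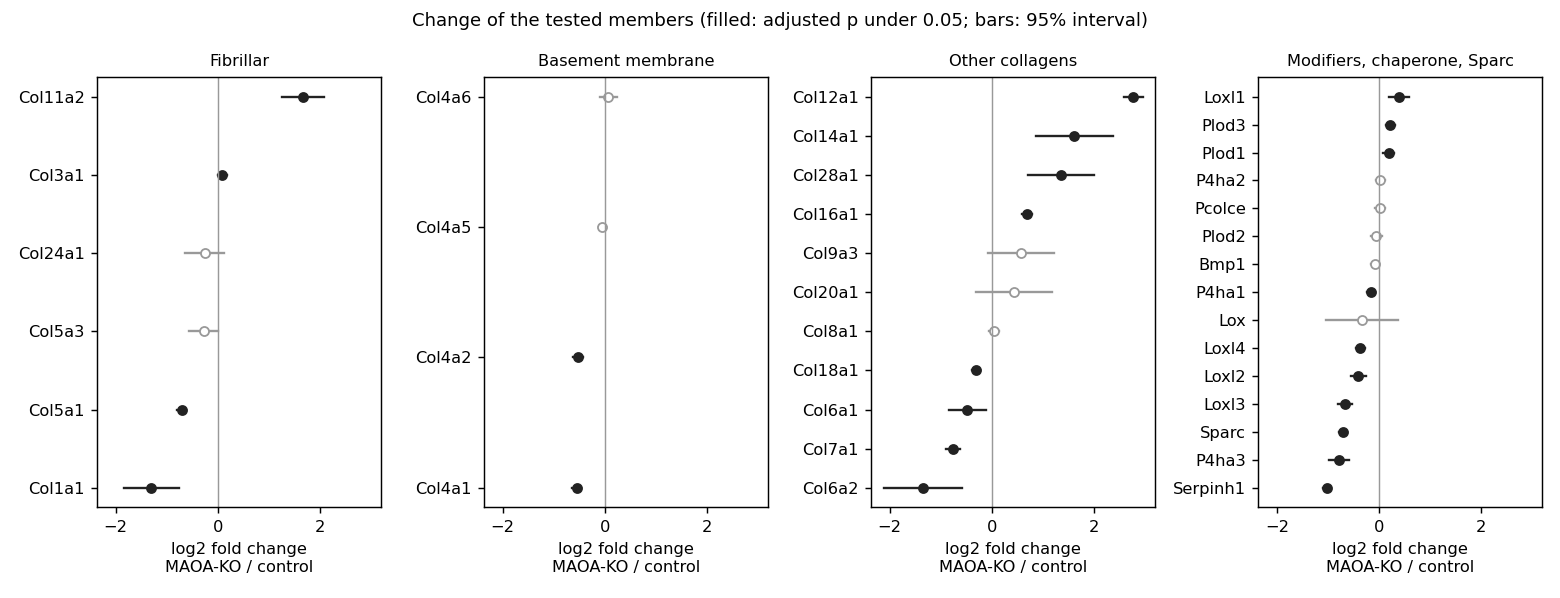
Log2 fold change of MAOA-KO over control for the 36 tested genes in 4 panels by class, with bars for 95% intervals and filled points for an adjusted p under 0.05. Serpinh1 is lowest among the modifiers and Col12a1 highest among the collagens.

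Promoter sequences are shown for 5 of the 8 genes that passed the test with a change of at least 1.5-fold and a level of at least 5 CPM, since these are genes on which the results turn. The others were Col12a1, Loxl3 and Sparc; the window listed for Sparc lies mostly in annotated UTR, is not printed and holds none of the motifs searched. Each is the 250 bases before the start in RefSeq's GRCm38.p6 annotation, on the gene's strand and 5′ to 3′, and capitals mark CCAAT and GGGCGG boxes on either strand, so that ATTGG and CCGCCC are the same boxes read from the other strand.
Serpinh1, chr7:99353240-99353489, minus strand: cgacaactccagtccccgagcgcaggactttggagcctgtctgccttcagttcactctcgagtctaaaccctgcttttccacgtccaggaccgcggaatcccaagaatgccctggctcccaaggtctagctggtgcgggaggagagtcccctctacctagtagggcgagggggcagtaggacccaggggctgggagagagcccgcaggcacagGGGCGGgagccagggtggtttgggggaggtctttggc
Col5a1, chr2:27886175-27886424, plus strand: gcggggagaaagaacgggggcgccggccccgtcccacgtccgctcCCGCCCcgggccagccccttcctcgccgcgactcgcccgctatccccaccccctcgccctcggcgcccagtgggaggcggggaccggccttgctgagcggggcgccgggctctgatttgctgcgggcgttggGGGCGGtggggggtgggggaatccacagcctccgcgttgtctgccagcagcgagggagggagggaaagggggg
Col7a1, chr9:108953336-108953585, plus strand: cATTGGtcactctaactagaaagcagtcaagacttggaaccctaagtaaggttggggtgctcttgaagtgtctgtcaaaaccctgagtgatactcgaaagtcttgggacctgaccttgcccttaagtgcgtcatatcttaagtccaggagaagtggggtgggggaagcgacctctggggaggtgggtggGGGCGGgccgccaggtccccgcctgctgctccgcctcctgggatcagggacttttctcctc
P4ha3, chr7:100285270-100285519, plus strand: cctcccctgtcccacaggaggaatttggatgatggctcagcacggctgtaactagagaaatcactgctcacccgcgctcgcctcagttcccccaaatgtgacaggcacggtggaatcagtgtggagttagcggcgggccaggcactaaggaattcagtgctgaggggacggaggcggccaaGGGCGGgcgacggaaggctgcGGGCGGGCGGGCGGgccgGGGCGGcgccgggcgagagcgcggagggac
Col16a1, chr4:130047590-130047839, plus strand: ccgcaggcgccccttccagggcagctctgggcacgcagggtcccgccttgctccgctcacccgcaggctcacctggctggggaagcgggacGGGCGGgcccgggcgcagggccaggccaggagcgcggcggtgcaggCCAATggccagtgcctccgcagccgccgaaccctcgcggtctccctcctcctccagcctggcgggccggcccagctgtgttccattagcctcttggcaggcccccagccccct
The first 4 are promoters of genes that fell and the last is that of a gene that rose, and each of these 5 holds at least 1 GGGCGG box, unlike the window of Sparc. No CCAAT or GGGCGG box was found for Col12a1 or Loxl3 either, and whether these genes had a window is not given here. Promoter windows of 300 bases, from 250 before to 50 after the start, were found for 31 of the 43 genes, in 33 windows. GGGCGG, searched on both strands, was in 21 of the 33 (63.6%) and in 35.7% of 32851 mouse windows of the same length, which all came from the same source. Those 32851 were not limited to genes with a row here. Some of the 33 overlap, such as those of Col4a1 and Col4a2, so they are not separate sequences. CCAAT was in 10 (30.3%), beside 37.4%, TATAAA in 5 (15.2%), beside 13.6%, and ACGTG in 8 (24.2%), beside 19.6%. None of these 4 motifs contains another. The coding and untranslated sequence of collagen genes is rich in G and C, with a median of 56.5% over the collagen rows and 50% over all rows. Over the modifier rows the median was 54.5%. The G and C content of the promoter windows was not measured.

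The chaperone Serpinh1, which binds the collagen triple helix in the endoplasmic reticulum, fell most among the modifiers. It stood at 928, 899 and 878 CPM in the control and at 462, 429.9 and 437 CPM in the MAOA-KO libraries. The groups lay far apart, with means of 902 ± 25.5 and 443 ± 16.5 (SD, n = 3), a 2.04-fold lower level (log2 fold change -1.03 ± 0.04 SE, edgeR adjusted p = 2.16e-18). The gene lies on chr7:99345376-99353239. For this and the other genes whose groups were apart, the exact two-sided permutation test over libraries gave p = 0.1, the smallest that 3 against 3 allow.

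Sparc, a matricellular protein that binds type IV and fibrillar collagens, was 518, 499.5 and 499 CPM in control and 324, 305 and 307 CPM in MAOA-KO libraries. All 3 MAOA-KO libraries were below every control library, and the level was 1.62-fold lower (506 ± 10.8 to 312 ± 10.2 CPM, log2 fold change -0.70 ± 0.04, edgeR adjusted p = 4.92e-15). Pcolce, which enhances the removal of the C-propeptide by Bmp1, did not pass the test, at 221, 203 and 192 CPM in control and 219, 201 and 206 CPM in MAOA-KO libraries. Its groups overlapped, and the 95% interval of the log2 fold change ran from -0.07 to 0.12; scaled by library totals alone it was called higher (0.11, edgeR adjusted p = 0.0310). Bmp1 itself, the C-proteinase of fibrillar procollagens, stood at 147, 142 and 142 CPM in control and at 140.3, 135 and 135 CPM in MAOA-KO libraries. The difference was small (log2 fold change -0.07, edgeR adjusted p = 0.0927), and it passed with the replicate number as a block (adjusted p = 0.0182) and without MAOA-KO library 1 (0.0452).

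The 3 catalytic alpha subunits of prolyl 4-hydroxylase, which make the hydroxyproline that stabilises the helix, differed among themselves. P4ha3, the least abundant, stood at 12.9, 11.1 and 11.6 CPM in control and at 7.10, 7.53 and 5.84 CPM in MAOA-KO libraries. This was 1.72-fold lower with no overlap (log2 fold change -0.78 ± 0.10, edgeR adjusted p = 6.36e-08). P4ha1 fell by 0.16 on the log2 scale, from 228 ± 5.95 to 205 ± 8.01 CPM (edgeR adjusted p = 9.26e-04), and was not called when libraries were scaled by their totals alone (log2 fold change -0.07, adjusted p = 0.113). P4ha2 did not pass the test, at 78.0 to 82.7 CPM in control and 81.0 to 85.4 CPM in MAOA-KO libraries, and was called higher with library totals alone (log2 fold change 0.12, adjusted p = 0.0157).

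Among lysyl oxidases, which cross-link collagen and elastin, 3 of 5 fell and 1 rose, beside 36.9% lower and 37% higher of all genes. Loxl3 stood at 23.0, 22.2 and 22.9 CPM in control and at 15.0, 13.4 and 15.0 CPM in MAOA-KO libraries, 1.58-fold lower (log2 fold change -0.66 ± 0.07, edgeR adjusted p = 1.91e-09). The most abundant member, Loxl4, fell 1.29-fold (edgeR adjusted p = 2.72e-08), and Loxl2, which cross-links type IV collagen, fell by 0.40 on the log2 scale (8.99e-06). Loxl1, known for its part in elastic fibres, went the other way and was 1.32-fold higher (edgeR adjusted p = 5.30e-04), a call lost against a 1.2-fold change (0.0565). Lox was near the floor, with 7 to 15 counts a library, and did not pass the test. Of the lysyl hydroxylases, Plod1 rose by 0.19 ± 0.05 and Plod3, which also adds sugars to hydroxylysine, by 0.22 ± 0.04 on the log2 scale (edgeR adjusted p = 2.40e-03 and 6.07e-05), while Plod2, the telopeptide hydroxylase, was at 40.2 to 45.8 CPM in control and 41.1 to 42.2 CPM in MAOA-KO libraries and did not pass. The calls of Plod1 (0.936), Plod3 (0.810) and P4ha1 (1) were also lost against a 1.2-fold change in edgeR. In all, 3 of 15 modifiers rose and 7 fell, 66.7% called beside 73.9% of all genes, and the median of their log2 fold changes was -0.16.

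**Figure D3:**
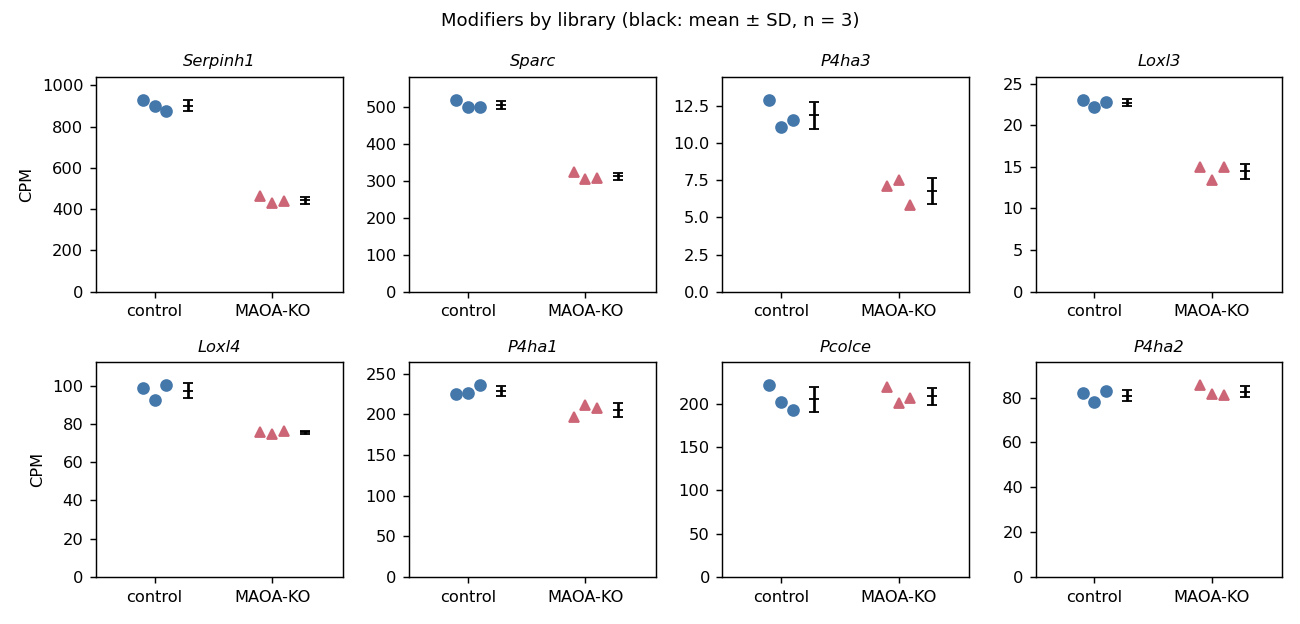
CPM of 8 modifiers in each library, with circles for control, triangles for MAOA-KO and black bars for the mean ± SD of 3 libraries; each axis starts at 0. Serpinh1, Sparc, P4ha3, Loxl3, Loxl4 and P4ha1 have no overlap between groups, and Pcolce and P4ha2 do.

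Type IV collagen is the main collagen of basement membranes, and its most common form pairs Col4a1 with Col4a2. Col4a1 stood at 469, 427 and 431 CPM in control and at 313, 289 and 303 CPM in MAOA-KO libraries. Every MAOA-KO library was below every control library, a 1.47-fold lower level (442 ± 23.1 to 302 ± 12.02 CPM, log2 fold change -0.55 ± 0.04, edgeR adjusted p = 4.88e-12). Col4a2 stood at 301, 271 and 272 CPM in control and at 210.2, 181 and 197 CPM in MAOA-KO libraries, again with no overlap and 1.44-fold lower (log2 fold change -0.53 ± 0.05, adjusted p = 3.07e-10). These genes lie head to head on chromosome 8 (GRCm38.p6), Col4a1 at chr8:11198423-11312826 on the minus strand and Col4a2 at chr8:11312805-11449287 on the plus strand, so that their annotated ends overlap by 22 bases. The strand setting of the counting was not given in the sources used here, and reads in those bases cannot be assigned. A CCAAT box lies near each start, shown in 30 bases of the gene's strand, in capitals and read from the other strand in the first. All 30 bases of each stretch lie in annotated UTR and inside the listed locus of the other gene.
Col4a1, chr8:11312954-11312983, minus strand: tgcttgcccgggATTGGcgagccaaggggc
Col4a2, chr8:11312761-11312790, plus strand: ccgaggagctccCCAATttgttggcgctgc
The ratio of Col4a2 to Col4a1, per length, was 0.658, 0.651 and 0.648 in control and 0.689, 0.640 and 0.665 in MAOA-KO libraries, with groups that overlapped.

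Col4a5 and Col4a6, which form another head-to-head pair of type IV genes on chromosome X, did not pass the test. Col4a5 stood at 161, 153 and 159.9 CPM in control and at 153, 152 and 155 CPM in MAOA-KO libraries, and the interval of its log2 fold change ran from -0.12 to 0.04 (edgeR adjusted p = 0.310). Col4a6 was lower in level, at 10.1 to 12.4 CPM in control and 11.7 to 12.02 CPM in MAOA-KO libraries. The ratio of Col4a5 to Col4a1 per length was therefore 0.347, 0.362 and 0.375 in control and 0.493, 0.532 and 0.516 in MAOA-KO libraries. No library of one group reached the other's range. Col4a4 had 1 to 9 counts and was not tested.

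Among the fibrillar chains, Col5a1 fell and Col3a1 did not. Col5a1, a minor chain that is built into other fibrils and regulates their start, stood at 159, 146 and 151 CPM in control and at 95.7, 89.8 and 95.1 CPM in MAOA-KO libraries. The groups did not overlap, and the level was 1.63-fold lower (log2 fold change -0.70 ± 0.04, edgeR adjusted p = 8.47e-14). Col3a1, the chain of type III collagen, stood at 126, 116 and 119.6 CPM in control and at 129, 126 and 131 CPM in MAOA-KO libraries. Its groups overlapped, since MAOA-KO library 2 lay just below control library 1, and the rise of 0.09 ± 0.04 on the log2 scale (edgeR adjusted p = 0.0418) was lost with DESeq2 (0.0949), with no filter on low counts (0.0672), against a 1.2-fold change (1) and without control library 2 (0.241), control library 3 (0.111), MAOA-KO library 1 (0.0614) or MAOA-KO library 3 (0.148). The ratio of Col5a1 to Col3a1 per length was 0.835, 0.836 and 0.837 in control and 0.489, 0.473 and 0.481 in MAOA-KO libraries, so that Col5a1 stood clearly lower against Col3a1 in every MAOA-KO library.

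The remaining fibrillar chains were scarce. Col1a1 had 47, 30 and 37 counts in control and 19, 17 and 8 in MAOA-KO libraries, and fell by 1.31 ± 0.26 on the log2 scale (edgeR adjusted p = 8.24e-05). Col11a2, a chain of cartilage fibrils, rose from 0.781, 0.754 and 0.901 CPM to 2.93, 2.34 and 2.61 CPM (log2 fold change 1.67 ± 0.20, edgeR adjusted p = 2.77e-08). Both changes were thus large in fold and small in level, and neither group pair overlapped. Col5a3, another type V chain, stood at 3.56, 2.97 and 3.24 CPM in control and at 2.89, 2.70 and 2.45 CPM in MAOA-KO libraries. Its groups did not overlap but lay close, and it did not pass the test (log2 fold change -0.27 ± 0.14, edgeR adjusted p = 0.0802), nor did Col24a1, with 24 to 40 counts. Col5a2, the partner of Col5a1 in type V collagen, had 8, 15 and 10 counts in control and 4, 7 and 6 in MAOA-KO libraries and was not tested, nor was Col1a2. The fibrillar class had 2 higher and 2 lower of 6 tested, 66.7% called beside 73.9% of all genes.

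The other collagens, which belong neither to the fibrillar family nor to type IV, moved in both directions, 4 higher and 4 lower of 11 tested. That is 72.7% called, beside 73.9% of all genes. The called Col14a1, Col28a1 and Col6a2 had passed the count filter only through the group where each was higher. Of 5 fibril-associated collagens tested, which sit on the surface of fibrils, Col12a1, Col16a1 and Col14a1 were called higher, and Col14a1, Col9a3 and Col20a1 had passed the count filter only through the MAOA-KO libraries, so the count of this group says nothing of its direction. Col12a1 (chr9:79598991-79718831) stood at 3.82, 4.48 and 3.56 CPM in control and at 25.2, 28.02 and 27.98 CPM in MAOA-KO libraries. All MAOA-KO libraries were far above the controls, a 6.85-fold higher level (3.95 ± 0.475 to 27.1 ± 1.59 CPM, log2 fold change 2.78 ± 0.09, edgeR adjusted p = 1.49e-19). Col16a1, much more abundant per length, stood at 57.9, 52.6 and 54.4 CPM in control and at 91.2, 84.8 and 91.9 CPM in MAOA-KO libraries, with no overlap and 1.62-fold higher (log2 fold change 0.70 ± 0.05, edgeR adjusted p = 8.19e-13). Col14a1 had 4 to 6 counts in control and 13 to 17 in MAOA-KO libraries (log2 fold change 1.62 ± 0.37, edgeR adjusted p = 3.19e-04). Col9a3 and Col20a1, with 6 to 20 counts, did not pass the test, although Col20a1 did without control library 3, in which it had 19 counts (edgeR adjusted p = 0.0248).

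Col7a1, which makes the anchoring fibrils below epithelia, and Col18a1, a multiplexin of basement membranes whose end is released as endostatin, both fell. Col7a1 stood at 40.9, 37.0 and 38.5 CPM in control and at 26.2, 21.1 and 21.8 CPM in MAOA-KO libraries, with no overlap and 1.69-fold lower (log2 fold change -0.76 ± 0.07, edgeR adjusted p = 1.46e-10). Col18a1 stood at 249, 231 and 232 CPM in control and at 202, 184 and 189 CPM in MAOA-KO libraries, 1.24-fold lower (log2 fold change -0.31 ± 0.04, edgeR adjusted p = 3.10e-07), a call lost against a 1.2-fold change (0.0979). Its groups were apart too, though closer than those of Col7a1. Col8a1, a short-chain network collagen, overlapped between groups at 50.6, 53.5 and 54.3 CPM in control and 53.4, 57.5 and 52.1 CPM in MAOA-KO libraries, with an interval of the log2 fold change from -0.06 to 0.14; with library totals alone it was called higher (0.13, edgeR adjusted p = 0.0173).

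The type VI chains, which form beaded filaments around cells, were all scarce. Col6a1 had 49 to 71 counts in control and 35 to 53 in MAOA-KO libraries, which overlapped, and its fall of 0.48 ± 0.18 on the log2 scale (edgeR adjusted p = 0.0173) was lost with DESeq2 (0.0809), against a 1.2-fold change (0.0861) and without control library 1 (0.108) or MAOA-KO library 1 (0.0633). Col6a2 had 13, 14 and 16 counts in control and 4, 8 and 4 in MAOA-KO libraries (log2 fold change -1.35 ± 0.37, edgeR adjusted p = 2.11e-03). Col6a3 had 13, 5 and 10 counts in control and 0, 3 and 4 in MAOA-KO libraries and was not tested. Col28a1, of the same structural group, rose from 6, 8 and 9 counts to 19, 22 and 16 (log2 fold change 1.36 ± 0.31, edgeR adjusted p = 3.94e-04). Col6a2 had passed the count filter only through the control and Col28a1 only through the MAOA-KO libraries. Each was thus tested because of the group where it was higher, and its call says nothing of direction. Col26a1 with 1 to 9, Col17a1 with 2 to 5 and Col15a1 with 1 to 6 counts were not tested.

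Added up, collagen transcripts were lower in MAOA-KO cells and differently composed. The summed FPKM of the 28 chains was 256, 235 and 240 in control and 222, 206 and 215 in MAOA-KO libraries, a log2 ratio of -0.18, or -0.27 when each gene's TMM-scaled CPM per kilobase was summed instead. Basement membrane chains, here type IV only, took 54.7%, 54.2% and 54.0% of the sum in control libraries. In MAOA-KO libraries they took 48.8%, 48.1% and 48.7%, a share below that of every control library. Col18a1 was counted with the other collagens, at a mean of 18.7% in control and 18.2% in MAOA-KO libraries. The other collagens took 29.0%, 29.6% and 29.5% in control and 34.4%, 34.7% and 34.1% in MAOA-KO libraries, and the fibrillar share was 16.2% to 16.5% in control and 16.7% to 17.2% in MAOA-KO libraries. Among single chains, the share of Col16a1 went from a mean of 4.20% to 8.23%, that of Col12a1 from 0.137% to 1.13% and that of Col4a1 from 26.6% to 21.9%. In absolute terms the summed level of the other collagens overlapped, at 69.4 to 74.2 FPKM in control and 71.7 to 76.6 FPKM in MAOA-KO libraries, and its log2 ratio of 0.049 became -0.0374 with TMM-scaled CPM, so no direction can be given for it. The ratio of the chaperone Serpinh1 to summed collagen was 1.59, 1.67 and 1.603 in control and 0.969, 0.965 and 0.944 in MAOA-KO libraries. These sums and ratios are descriptions of the libraries and were not tested.

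**Figure D4:**
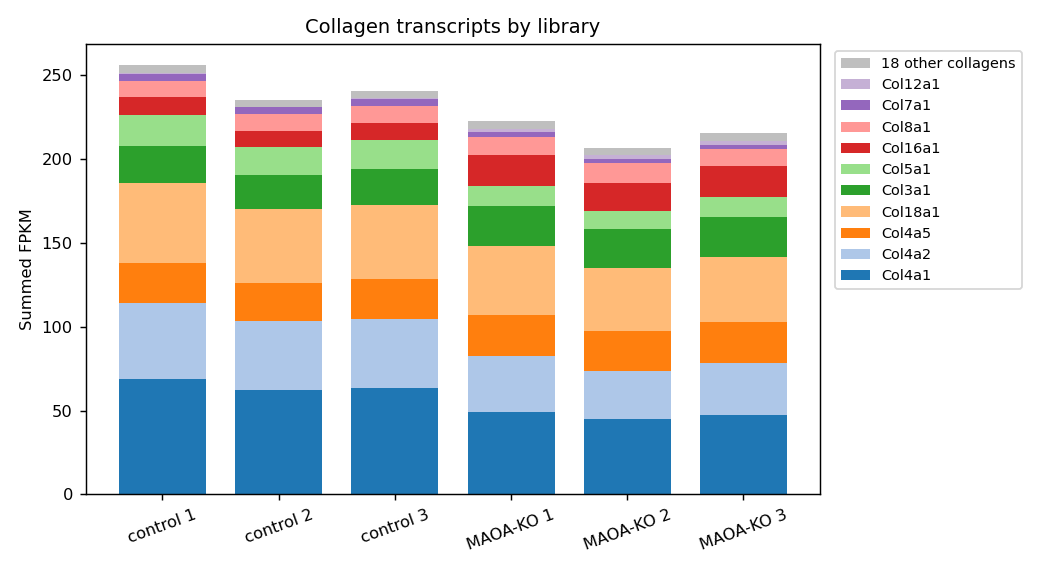
Summed FPKM of collagen chains in each of the 6 libraries, stacked by chain, with the 18 other chains together. The Col4a1 and Col4a2 blocks are lower and the Col16a1 block is higher in the 3 MAOA-KO libraries.

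**Figure D5:**
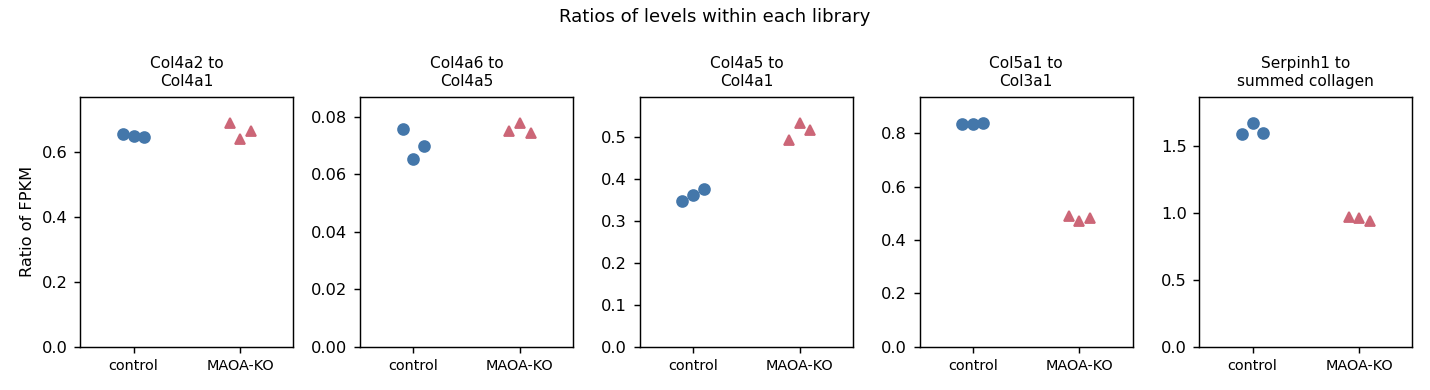
Ratio of FPKM between collagen chains, or of Serpinh1 to summed collagen, in each library, with circles for control and triangles for MAOA-KO. The axes start at 0. Col4a2 to Col4a1 and Col4a6 to Col4a5 overlap between groups, while Col4a5 to Col4a1, Col5a1 to Col3a1 and Serpinh1 to summed collagen do not.

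Other genes of the collagen pathway were taken from 4 lists of helpers, assembly proteins, receptors and basement membrane partners. Of 49 tested, 16 rose and 20 fell, 73.5% called beside 73.9% of all genes, and the median of the log2 fold changes was -0.06. In the list of folding and export, 5 of 17 tested rose and 9 fell, 82.4% called, beside 37% higher and 36.9% lower of all genes. P3h1, a prolyl 3-hydroxylase, went from 51.4 ± 2.60 to 27.7 ± 0.790 CPM and the chaperone Fkbp10 from 43.9 ± 1.88 to 23.8 ± 1.09 CPM, with log2 fold changes of -0.89 ± 0.05 and -0.88 ± 0.05 (edgeR adjusted p = 4.66e-14 and 1.44e-13). Kdelr2, a receptor that retrieves chaperones from the Golgi, fell from 146 to 83.3 CPM (1.28e-14), and P4hb, the beta subunit of prolyl 4-hydroxylase, from 1366 to 974.9 CPM (7.89e-13). P3h2 rose, from 7.24 to 17.0 CPM (9.51e-13).

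In the list of propeptide removal and fibril assembly, 7 of 15 rose and 5 fell. That is 80% called, beside 73.9% of all genes, where 37% were higher and 36.9% lower. Ogn, a small leucine-rich proteoglycan that binds fibrils, rose from 11.8 ± 0.820 to 65.9 ± 4.33 CPM (log2 fold change 2.48 ± 0.06, edgeR adjusted p = 2.16e-21). Adamts2, an N-propeptide proteinase of fibrillar procollagens, rose from 0.785 to 3.62 CPM (7.02e-11) and Thbs1 from 97.5 to 147 CPM (8.93e-13). The more abundant Adamts14 fell from 35.9 to 28.8 CPM (1.77e-05), a call lost against a 1.2-fold change (0.112). Pcolce2, a relative of Pcolce, fell from 74.7 to 42.1 CPM (1.71e-14), and Fbln1 fell from 7.23 to 2.86 CPM (1.73e-10). Of 9 collagen receptors and uptake genes, 3 rose and 3 fell, 66.7% called beside 73.9% of all genes. Ddr1, a receptor tyrosine kinase for collagen, rose from 60.7 to 104 CPM (5.92e-14), whereas its relative Ddr2 fell from 454 to 388 CPM (1.90e-05). Among the rises counted was Ctsk, with 3, 5 and 3 counts in control and 11, 12 and 10 in MAOA-KO libraries. Ctsk passed the count filter only through the MAOA-KO libraries, where it was higher. Itga2 fell from 14.8 to 9.75 CPM (1.38e-06), its partner chain Itgb1 rose from 1078 to 1265 CPM (1.77e-06), and the uptake receptor Mrc2 fell from 2.82 to 1.70 CPM (7.45e-04). Against a 1.2-fold change in edgeR the calls of Ddr2 (0.822) and Itgb1 (0.81) were lost. Of 8 basement membrane partners, 1 rose and 3 fell, 50% called beside 73.9% of all genes. Among those that fell were Hspg2 (perlecan), from 356 to 262 CPM (1.45e-09), and the laminin chain Lamc1, from 402 to 299.9 CPM (3.96e-10). Pxdn, which forms the sulfilimine cross-link of type IV collagen, fell from 112 to 104 CPM (0.0207) and Agrn rose from 249 to 269.5 CPM (0.0145), and both were small shifts. Pxdn did not pass without control library 1 (edgeR adjusted p = 0.0685) or with library totals alone (0.687), nor Agrn without control library 2 (0.151) or MAOA-KO library 1 (0.0577). Neither gene passed against a 1.2-fold change.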

How the data were processed

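RNA from cultured cells was sequenced in 6 libraries, 3 control and 3 MAOA-KO. The deposited table gives raw read counts per gene and FPKM by the authors, per the file headers; it also holds the authors' log2 fold changes, p-values and −log10 values, which the authors deposited and which were not used here. Per the submitters' processing notes the genome was mm10, and the file header names GRCm38.p6. What aligned and counted the reads, and with which strand setting, was not given in the sources used here. Protocols in the labels describe a library enriched for small RNA, while 97.8% to 98.3% of counts lay on protein-coding genes. The locus listed for each of the 43 genes overlapped its GENCODE M21 locus.

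Counts were fitted over the whole table with edgeR 4.0.16 (R 4.3.3): TMM factors, filterByExpr (about 10 counts, 0.413 CPM, in 3 libraries), robust quasi-likelihood test, Benjamini-Hochberg adjustment over 13243 genes, threshold 0.05. The common biological coefficient of variation was 0.0332. Levels between genes were compared in FPKM, changes in TMM-scaled CPM; the deposited FPKM carry no TMM factor. The exact permutation test used log2(CPM + 0.5). Library pairs within a group differed by more than counting noise. The script was tested on simulated data with 200 changed genes.

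Genes with values in each library had an adjusted p under 0.05, at least 1.5-fold and 5 CPM, or were among the 3 of their class with the highest FPKM. Scarce genes appear with counts and the rest with ranges. Bmp1 and Col11a2 with values in each library were added after these were seen. Up to 5 called genes of each pathway list are given, and Adamts14, Ctsk, Thbs2 and Fn1 were added after their values were seen. Genes and lists were chosen with earlier results of these data known. DESeq2 1.42.0, limma 3.58.1, other scalings, no filter, a 1.2-fold test, a replicate block and leaving out each library were alternatives; GC and length correction was added after seeing the data. Intervals are 95% and floors cover counting error only. Promoters came from RefSeq.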

Additional observations from a re-analysis of the deposited data

How the results depend on the processing

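Of 15 alternatives, none changed the direction of a called gene. The calls of 24 collagen and modifier genes became 17 when tested against a 1.2-fold change (5 higher and 12 lower, instead of 9 and 15), and of the other pathway genes 12 instead of 20 were then lower and 11 instead of 16 higher. With leave-one-out fits, 8 to 9 were higher and 14 to 15 lower. With DESeq2 23 genes were called, 22 of them shared; with library totals alone 26 (12 higher and 14 lower), 23 of them shared. The summed collagen log2 ratio of -0.18 was -0.27 with TMM-scaled CPM per kilobase, and ran from -0.21 to -0.15 without single libraries; the fibrillar ratio of -0.12 became -0.21, and that of the other collagens, 0.049, reversed to -0.0374. The shift follows from the TMM factors, which the deposited FPKM lack. GC and length correction, chosen after seeing the data, kept all 24 calls, placed P4ha2 (0.15) and Pcolce (0.15) higher and Plod2 (-0.16) lower on the log2 scale, and gave 27 calls, with or without the replicate block. Same-numbered libraries correlated at 0.0880, 0.0576 and 0.0346 in their deviations over all tested genes, and at 0.367, 0.269 and 0.255 over the 8992 genes of at least 10 CPM, where control library 3 stood almost as close to MAOA-KO library 2 (0.247). The labels name nothing that the numbers share, and whether they pair the libraries was not settled; the replicate block gave 9 higher and 16 lower genes of the set, 16 and 21 of the other pathway genes and 10205 of all genes, instead of 9781. Chains under about 10 counts in a library are limited by depth.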

Other observations

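Markers of cartilage and bone moved in different directions beside the rise of Col11a2. Sox9, a transcription factor of cartilage, was 31.3 ± 1.33 CPM in control and 49.4 ± 3.68 CPM in MAOA-KO libraries (n = 3, log2 fold change 0.66 ± 0.06, edgeR adjusted p = 7.59e-11). Acan, the main cartilage proteoglycan, had 13, 23 and 27 counts in control libraries and 1 count in each MAOA-KO library. It had passed the count filter only through the control libraries, where it was higher, so its fall says nothing of direction. Runx2, a transcription factor of bone, fell by 0.39 on the log2 scale (edgeR adjusted p = 1.82e-07). Of the 8 markers, 4 had no row, among them Comp and Matn1, and Col2a1 had none either.

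In the list of fibril assembly, 7 of 15 tested rose and 5 fell. That is 80% called, beside 73.9% of all genes, where 37% were higher and 36.9% lower. From this list, 3 more genes that rose were picked after their values were seen. Of the same list, Thbs2 fell from 5.20 to 2.98 CPM and Fn1 from 2353 to 2053 CPM (edgeR adjusted p = 3.51e-06 and 1.28e-04). The call of Fn1 was lost against a 1.2-fold change. Prelp went from 0.858 ± 0.362 to 4.01 ± 0.0633 CPM and Tnc from 7.00 ± 0.433 to 13.0 ± 0.708 CPM (edgeR adjusted p = 1.78e-10 and 8.84e-10). Tll1, a proteinase of the Bmp1 family, rose from 1.42 ± 0.168 to 3.68 ± 0.530 CPM (4.93e-08), beside Bmp1 itself, which did not pass the test.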
